A study of Mus musculus with 4 samples.

Results

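The 8 genes described here encode secreted and membrane-bound effector molecules of T cells: Ifng, Tnf, Il2, Csf1, Csf2, Lta, Ltb and Tnfsf14. They were chosen by symbol, were found as 8 of the 32285 genes in each count matrix, and all 8 passed the filter on low counts over all T cells. The cells were CD8 T cells sorted from B16F10 tumours, a transplantable melanoma line, in C57BL/6J mice aged 6 to 8 weeks. There were 2 groups of 2 samples: sgArid1a, named for a guide against Arid1a, whose protein belongs to a SWI/SNF chromatin remodeller and binds DNA, and sgScr, named for a scrambled guide. In both groups tumours were digested with Liberase and DNase I before live CD45+ CD3+ CD8+ cells were sorted. Which cells carried the guide is not given in the labels. Nothing in the labels places the 2 replicates of a group in separate animals, so p-values reflect how far these 4 samples vary, and that variation may be technical.

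CD8 T cells that recognise their antigen transcribe cytokine genes in short bursts, through calcium-activated NFAT together with AP-1 and NF-kB factors, and the messages are then removed by RNA-binding proteins that recognise AU-rich elements. Interferon-gamma and TNF act on tumour cells, endothelium and macrophages, IL-2 acts on T cells, and the colony-stimulating factors act on macrophages and other myeloid cells. Lymphotoxins and LIGHT (the product of Tnfsf14) are TNF family ligands that signal through receptors on stromal, myeloid and lymphoid cells. Chronic antigen in tumours is known to shift T cells from producing several cytokines at once to producing fewer, with IL-2 lost early.

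The sequences upstream of 4 of the genes are shown because factors driven by the T cell receptor are known to act there, and because these 4 windows held the TATAAA match. Each is the 250 bases before the transcription start in RefSeq on GRCm38.p6, 5′ to 3′ on the gene's own strand, with each match to the NFAT core GGAAA on either strand (TTTCC when reversed) and each match to TATAAA on either strand in capitals. Ifng lies on the plus strand and the other 3 on the minus strand. The windows are chr10:118440796-118441045 for Ifng, chr3:37125955-37126204 for Il2, chr17:35202008-35202257 for Tnf and chr17:35205352-35205601 for Lta.
Ifng: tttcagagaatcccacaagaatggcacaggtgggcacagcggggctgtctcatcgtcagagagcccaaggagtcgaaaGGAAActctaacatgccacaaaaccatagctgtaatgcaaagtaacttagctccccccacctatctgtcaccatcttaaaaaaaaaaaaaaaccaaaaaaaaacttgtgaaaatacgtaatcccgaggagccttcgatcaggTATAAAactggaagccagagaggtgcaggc
Il2: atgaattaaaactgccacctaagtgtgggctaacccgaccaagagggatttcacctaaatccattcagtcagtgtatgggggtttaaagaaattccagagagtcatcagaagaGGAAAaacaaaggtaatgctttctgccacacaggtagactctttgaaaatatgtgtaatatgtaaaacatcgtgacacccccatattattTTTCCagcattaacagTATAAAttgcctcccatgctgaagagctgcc
Tnf: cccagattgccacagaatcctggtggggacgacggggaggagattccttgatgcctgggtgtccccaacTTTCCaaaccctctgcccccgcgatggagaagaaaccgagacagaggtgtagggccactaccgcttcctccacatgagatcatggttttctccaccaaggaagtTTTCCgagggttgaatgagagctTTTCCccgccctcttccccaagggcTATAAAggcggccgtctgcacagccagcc
Lta: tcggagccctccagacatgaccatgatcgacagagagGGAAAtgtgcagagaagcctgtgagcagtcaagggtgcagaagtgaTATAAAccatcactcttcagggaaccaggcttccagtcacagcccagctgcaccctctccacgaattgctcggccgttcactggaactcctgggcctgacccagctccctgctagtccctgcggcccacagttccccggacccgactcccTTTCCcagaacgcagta
All 8 upstream windows held GGAAA, as did 55.6% of the 32851 windows of this length in the table. TATAAA was found in these 4 of 8 and in 12.4% of all windows. An AP-1 motif, TGANTCA, was found in 1 of 8 and in 6.75% of all, and an NF-kB-type motif, GGG and CC with 5 bases between them, in 6 of 8 and in 45.8% of all, each searched on both strands. These matches describe letters and say nothing about binding. The RefSeq start used for the Csf2 window lies 232 bases upstream of the GENCODE start, and that of Ltb 68 bases downstream of it. For the other genes these starts are at most 5 bases apart. The Csf2 window thus does not cover the bases just before its GENCODE start. Ltb, Tnf and Lta are neighbours on chromosome 17 (GRCm38, GENCODE M21), with 3060 bases from the end of Ltb to Tnf and 1157 bases from Tnf to Lta. Ltb runs on the plus strand from 35194439 to 35196320, and Tnf and Lta run on the minus strand, from 35199381 to 35202007 and from 35203165 to 35205351. Tnfsf14 lies on the same chromosome on the minus strand from 57189492 to 57194177. Ifng lies on chromosome 10 on the plus strand from 118441046 to 118445892, and Csf2 on chromosome 11 on the minus strand from 54247271 to 54249667. Il2 (37120523 to 37125959) and Csf1 (107741048 to 107760469) both lie on the minus strand of chromosome 3. All 8 are protein-coding genes in that annotation.

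The 4 libraries held 38261 T cells after filtering: 10695 and 12773 in sgArid1a, and 7636 and 7157 in sgScr. They carried 39285383 and 81460688 UMIs (unique molecular identifiers, each counted as 1 captured transcript) in sgArid1a, and 35642152 and 32201336 in sgScr. The median UMIs per T cell were 2407 and 4025 in sgArid1a and 3750 and 3597 in sgScr, so sgArid1a replicate 1 was the shallowest library per cell. Between 92.1 and 96.3% of the T cells had a Cd8a or Cd8b1 UMI and between 0.0524 and 0.344% had a Cd4 UMI. Pairs of libraries shared 74 to 218 cell barcodes. CPM below stands for UMIs of a gene in each 1000000 UMIs. Arid1a itself had 74.1 and 72.6 CPM in sgArid1a and 85.2 and 93.6 CPM in sgScr, a log2 fold change of -0.26 ± 0.06 (SE) with an edgeR adjusted p of 0.00423.

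Summed over all T cells, 7 of the 8 genes were higher in sgArid1a at an edgeR quasi-likelihood adjusted p under 0.05, and none was lower. The background was high, since 28% of the 12793 genes tested were called higher and 54.4% were called in either direction. The median log2 fold change of the 8 genes was 0.96, against -0.02 over all genes tested. Both sgArid1a samples lay above both sgScr samples for the same 7 genes, an order seen in 35% of all genes tested. A sum over all T cells does not tell apart more producing cells and more RNA in each producing cell. Shares of cells follow further down, but whether a gene is detected also depends on the RNA in each cell.

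Ifng, the interferon of killer T cells, stood at 117 and 114 CPM in sgArid1a and at 46.7 and 27.2 CPM in sgScr. The sgScr replicates were far apart, yet both lay well under both sgArid1a samples. The log2 fold change was 1.67 ± 0.16 (SE, n = 2 samples per group, edgeR adjusted p = 2.42e-06). Tnf, the founding member of its family, stood at 11.3 and 12.5 CPM in sgArid1a and at 6.45 and 6.37 CPM in sgScr, a log2 fold change of 0.92 ± 0.09 (edgeR adjusted p = 2.75e-06). Il2, the T cell growth factor, had the fewest UMIs of the 8, at 5.55 and 4.25 CPM in sgArid1a and 2.53 and 2.33 CPM in sgScr, with a log2 fold change of 1.003 ± 0.174 (edgeR adjusted p = 0.000299). For both genes the groups did not overlap, and the replicates were closer in sgScr than in sgArid1a. In sgArid1a replicate 1, 1 cell held 70 of the 218 Il2 UMIs. Without the highest cell of each sample Il2 stood at 3.77 and 3.92 CPM in sgArid1a and at 2.27 and 2.21 CPM in sgScr.

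The colony-stimulating factors had the largest log2 fold changes of the 8 genes. Csf2, which encodes GM-CSF, stood at 18.8 and 13.3 CPM in sgArid1a and at 2.86 and 3.70 CPM in sgScr, a log2 fold change of 2.30 ± 0.18 (edgeR adjusted p = 3.96e-07). Csf1, the macrophage growth factor, stood at 31.3 and 31.0 CPM in sgArid1a and at 7.66 and 10.0 CPM in sgScr, a log2 fold change of 1.85 ± 0.10 (edgeR adjusted p = 1.29e-08). For each of these genes both sgArid1a values were above both sgScr values.

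Among the TNF family ligands, Lta, which encodes lymphotoxin-alpha, stood at 16.8 and 17.9 CPM in sgArid1a and at 9.595 and 9.503 CPM in sgScr, a log2 fold change of 0.89 ± 0.08 (edgeR adjusted p = 1.08e-06). Its membrane partner lymphotoxin-beta, encoded by Ltb, had the most UMIs of the 8, at 872 and 899 CPM in sgArid1a and 793 and 800.5 CPM in sgScr, with a log2 fold change of 0.18 ± 0.07 (edgeR adjusted p = 0.0342). The Ltb call was lost without sgScr replicate 1 (adjusted p = 0.238), without sgScr replicate 2 (0.348) and without cells that held 2 or more Trbv segments (0.0541). Tnfsf14, which encodes LIGHT, a T cell costimulator, stood at 8.17 and 9.18 CPM in sgArid1a and at 7.46 and 8.29 CPM in sgScr. These values overlapped, and the log2 fold change of 0.18 ± 0.10 did not pass (edgeR adjusted p = 0.135).

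**Figure D1:**
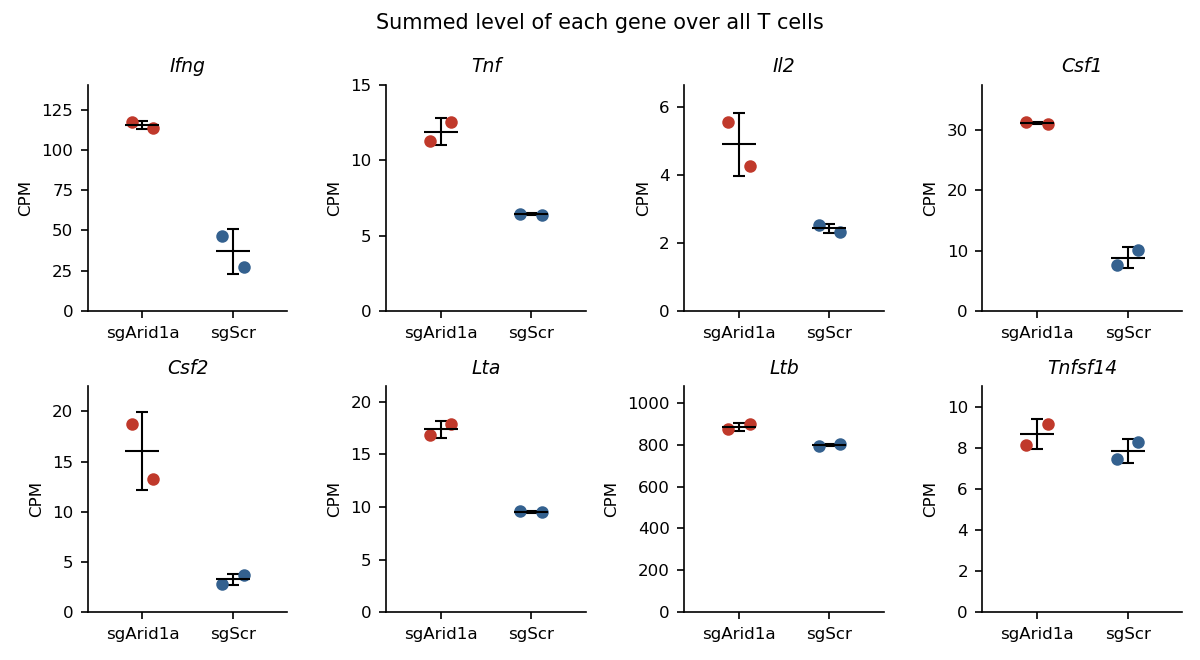
Summed level of each of the 8 genes over all T cells, in CPM (vertical axis, from 0), for 2 sgArid1a and 2 sgScr samples (points), with mean and SD (bars). The groups are separate in 7 panels and overlap for Tnfsf14; Ltb has the highest values and differs little.

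The 8 genes were read in different cells. Clustering, made without these 8 genes, gave 12 T cell states, 9 of them named from marker genes with the ending "-like" and 3 kept by a leading gene or feature (Gbp2 cluster, Cd163l1 cluster and a low-UMI cluster with a median of 1240 UMIs). These names are rebuilt here. Levels across states are given as a description. Ifng was highest in receptor-stimulated-like cells, whose leading genes include Xcl1, Ccl1, Crtam and Csf2 itself. It stood there at 473 and 481 CPM in sgArid1a and 469 and 43.1 CPM in sgScr. It was next in exhausted-like cells at 193 and 172 CPM in sgArid1a and 128 and 108 CPM in sgScr, and in cycling-like cells at 175 and 149 CPM in sgArid1a and 95.7 and 58.0 CPM in sgScr. Naive/central memory-like cells held 1.06 and 1.45 CPM in sgArid1a and 0.377 and 0.262 CPM in sgScr. In sgScr replicate 2 the receptor-stimulated-like value lay under the exhausted-like and cycling-like values, and in the other 3 samples it lay above them.

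Csf1 was read in a narrower set of states. Exhausted-like cells held 81.0 and 76.7 CPM in sgArid1a and 42.1 and 46.9 CPM in sgScr, and supplied between 58.5 and 61.2% of all Csf1 UMIs in each of the 4 samples. Cycling-like cells held 47.0 and 42.4 CPM in sgArid1a and 15.6 and 20.5 CPM in sgScr, while Car2 memory-like cells held at most 1.37 CPM in any sample. The low-UMI cluster, with few cells in each sample, held 40.0 and 88.0 CPM in sgArid1a and 60.2 and 104 CPM in sgScr. Il2 showed nearly the reverse. It stood at 11.8 and 12.5 CPM in Car2 memory-like cells of sgArid1a and 14.1 CPM in both sgScr samples, but at most 0.917 CPM in exhausted-like cells of any sample. Receptor-stimulated-like cells held 62.4 and 25.8 CPM of Il2 in sgArid1a and 9.71 and 4.01 CPM in sgScr, and supplied 51.4 and 34.1% of all Il2 UMIs in sgArid1a and 13.3 and 5.33% in sgScr.

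Csf2 was highest in receptor-stimulated-like cells, at 111 and 104 CPM in sgArid1a and 39.7 and 60.2 CPM in sgScr, and was also read in cycling-like and exhausted-like cells and in the low-UMI cluster. Tnf and Lta were spread over more states, and Tnf was highest in the low-UMI cluster by the mean of the 4 samples. Lta ranged from 4.795 CPM in naive/central memory-like cells of sgScr replicate 2 to 67.9 CPM in receptor-stimulated-like cells of sgArid1a replicate 1, leaving aside the heat-shock-like state, where it was at 0 in 1 sample. Tnfsf14 was led by receptor-stimulated-like cells at 54.0 and 47.0 CPM in sgArid1a and 56.7 and 54.2 CPM in sgScr, and stood at most at 1.13 CPM in naive/central memory-like cells of any sample. Ltb stood at 332.9 CPM or more in all 12 states and 4 samples, including naive/central memory-like cells at 1056 and 1103 CPM in sgArid1a and 852 and 864 CPM in sgScr. It was lowest among the larger states in cycling-like cells, at 489 and 539 CPM in sgArid1a and 333 and 403 CPM in sgScr.

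**Figure D2:**
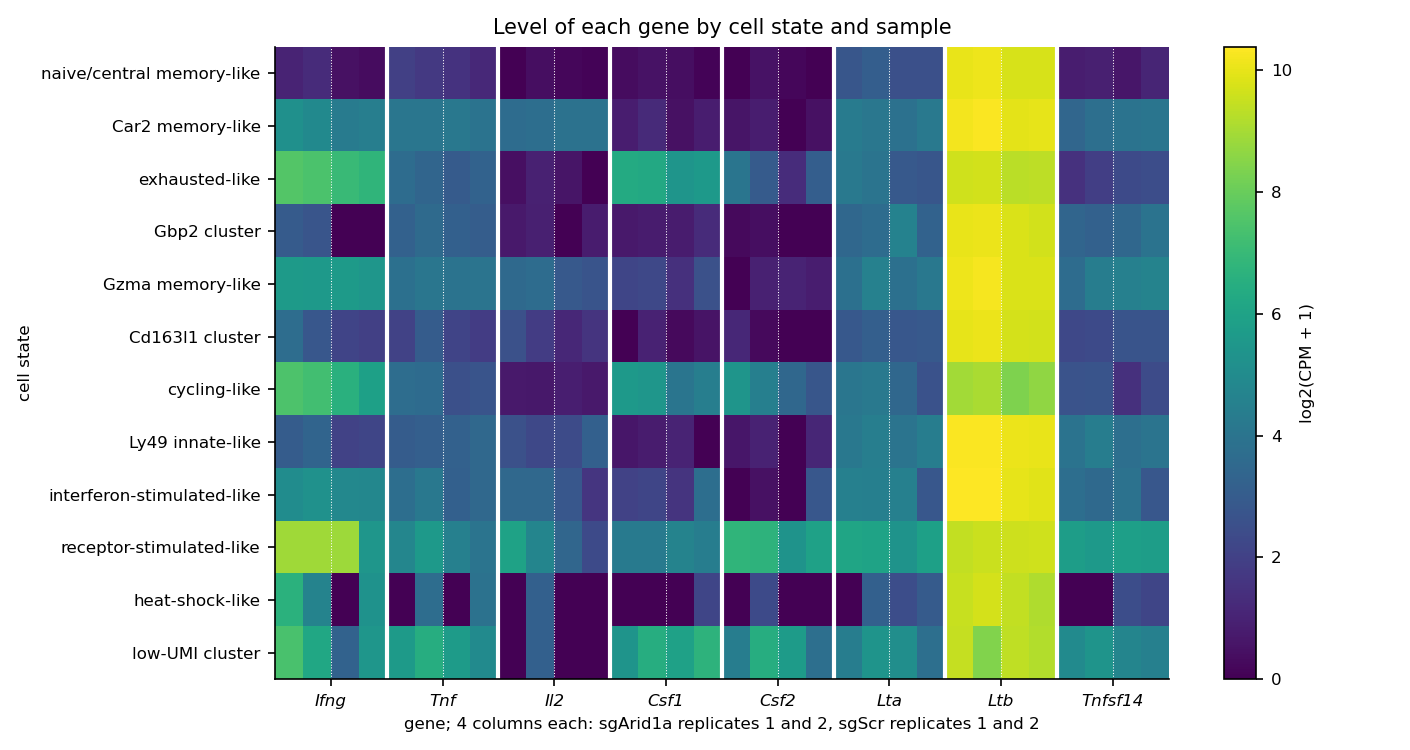
Level of each gene as log2(CPM + 1) (colour) in 12 cell states (rows, largest at the top), with 4 columns per gene: sgArid1a replicates 1 and 2, then sgScr replicates 1 and 2. Ltb is high in every row, Csf1 and Il2 light up in different rows, and the receptor-stimulated-like Ifng value of sgScr replicate 2 stands below the other 3.

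Within states, 58 combinations of gene and state could be tested over 11 states, and 19 were called, all of them higher in sgArid1a. The 19 include Ifng in the Gbp2 cluster and Il2 in receptor-stimulated-like cells, which passed the filter on low counts through the sgArid1a samples, where they are high, so the count of calls is a description. The share of all genes called higher was 3.17% in naive/central memory-like cells, 1.25% in Car2 memory-like cells, 7.5% in exhausted-like cells, 0.385% in the Gbp2 cluster, 2.99% in Gzma memory-like cells and 0.834% in the Cd163l1 cluster. It was 2.01% in cycling-like, 2.43% in Ly49 innate-like, 0.0472% in interferon-stimulated-like and 0.683% in receptor-stimulated-like cells, and 3.2% in the low-UMI cluster. Heat-shock-like cells were not tested, since sgArid1a replicate 1 had 27 of them. Cycling-like cells gave the most calls, 6 of 7 genes tested, where 2.01% of all genes were called higher. There the log2 fold changes were 1.95 ± 0.35 for Csf2, 1.38 ± 0.15 for Csf1, 1.23 ± 0.23 for Tnf, 1.16 ± 0.23 for Lta, 1.13 ± 0.16 for Ifng and 0.55 ± 0.09 for Ltb (edgeR adjusted p from 2.11e-05 to 0.00612). Tnfsf14 had 0.96 ± 0.36 and did not pass (edgeR adjusted p = 0.150). Without sgScr replicate 2 the Lta call in these cells was lost (adjusted p = 0.103).

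Exhausted-like cells gave 4 calls of 7, where 7.5% of all genes were called higher. Lta stood at 17.3 and 14.97 CPM in sgArid1a and at 6.55 and 5.95 CPM in sgScr, a log2 fold change of 1.41 ± 0.20. Csf1 differed by 0.89 ± 0.10, Ifng by 0.69 ± 0.10 and Ltb by 0.37 ± 0.07 (edgeR adjusted p from 1.95e-06 to 0.00159 over the 4). Csf2 stood at 15.2 and 6.83 CPM in sgArid1a and at 1.51 and 7.69 CPM in sgScr, so the groups overlapped (log2 1.18 ± 0.43, not called). No p is given for Csf2 here, because sgScr replicate 1 lay under the filter on low counts and the gene needed sgArid1a samples to pass it. Of the 31 Csf2 UMIs in sgScr replicate 2, 17 came from 1 cell. When the cell with most UMIs of each gene was left out of every sample (an alternative added after seeing the data), Csf2 had a log2 fold change of 1.79. The value depended on single samples: it was 0.47 without sgScr replicate 1 and 0.60 without sgArid1a replicate 1. It was 2.77 without sgScr replicate 2 and 1.81 without sgArid1a replicate 2. With the replicate block it was 1.21, and without a filter on low counts it was 1.21. These values are a description.

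Receptor-stimulated-like cells gave 2 calls of 8, Csf2 and Il2, where 0.683% of all genes were called higher. Csf2 had a log2 fold change of 1.19 ± 0.18 (edgeR adjusted p = 0.000920). Il2 had 2.51 ± 0.49, and no p is given, because it passed the filter on low counts through sgArid1a. The Il2 call is thus a description. The Il2 sums rested on few cells, since 1 cell held 70 of the 112 UMIs in sgArid1a replicate 1, and 1 cell held all 4 in sgScr replicate 2. Without the highest cell of each sample Il2 stood at 23.5 and 19.9 CPM in sgArid1a and at 2.44 and 0 CPM in sgScr. Among those that did not pass, Tnf stood at 26.2 and 46.1 CPM in sgArid1a and at 21.9 and 15.1 CPM in sgScr (log2 1.11 ± 0.28, edgeR adjusted p = 0.0555). Over 8 alternatives Tnf ranged from 0.58 without sgArid1a replicate 2 to 1.43 without sgScr replicate 1, and passed in 4. Lta had 0.50 ± 0.19 (edgeR adjusted p = 0.210), and Csf1, Ltb and Tnfsf14 had -0.21 ± 0.25, -0.06 ± 0.11 and -0.09 ± 0.18.

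Ifng in receptor-stimulated-like cells turned on a single cell. The state held 849 and 2202 Ifng UMIs in sgArid1a and 579 and 43 in sgScr, and 469 of the 579 in sgScr replicate 1 (81.0%) came from 1 cell of 6555 UMIs. The next cell of that sample held 30. In sgArid1a the highest cells held 230 and 397 Ifng UMIs and were followed by cells with 209 and 311. With all cells the log2 fold change was 0.94 ± 0.43 and did not pass (edgeR adjusted p = 0.308). Without the highest cell of each gene in every sample Ifng stood at 346 and 398 CPM in sgArid1a and at 89.5 and 34.7 CPM in sgScr, and the log2 fold change in a fit without those cells was 2.69 (edgeR adjusted p = 1.98e-10). Over 8 alternatives the log2 fold change ranged from 0.12 without sgScr replicate 2 to 3.53 without sgScr replicate 1, each from a fit with 1 sgScr sample. The same cell held 28.2% of all Ifng UMIs of sgScr replicate 1, and without the highest cells the values over all T cells were 111 and 109 CPM in sgArid1a and 33.5 and 26.2 CPM in sgScr.

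**Figure D3:**
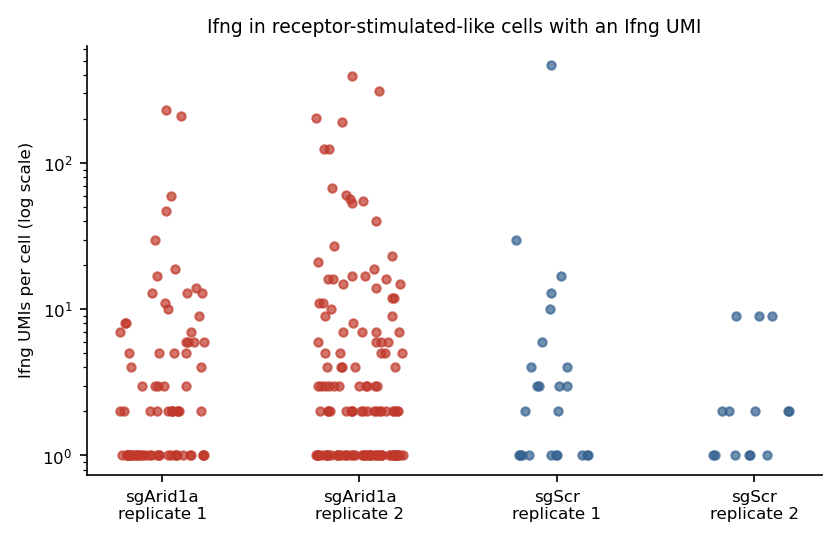
Ifng UMIs per cell (vertical axis, log scale) in receptor-stimulated-like cells with at least 1 Ifng UMI, by sample; each point is a cell and its sideways position carries no value. Cells above 100 UMIs number 2 and 6 in sgArid1a and 1 in sgScr replicate 1 (469 UMIs), and the highest cells of sgScr replicate 2 hold 9.

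Ltb showed a small difference of much the same size in most states. It was called higher in 7 of 11 states, with log2 fold changes from 0.31 ± 0.09 in Ly49 innate-like cells to 0.55 ± 0.09 in cycling-like cells, while the median log2 fold change of all genes in the 11 states lay between -0.02 and 0.00. In Gzma memory-like cells, for example, Ltb stood at 1124 and 1219 CPM in sgArid1a and at 886 and 891 CPM in sgScr (log2 0.46 ± 0.08, edgeR adjusted p = 5.21e-05), where 2.99% of all genes were called higher. With 1 sgScr sample left out, the Ltb fold changes of the 7 states stayed between 0.30 and 0.68, but the calls in 5 of them were lost. Receptor-stimulated-like cells and the low-UMI cluster were the states without a positive value. Ltb values within most states were thus larger than the 0.18 over all T cells.

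Other states gave isolated calls. In Car2 memory-like cells Ifng stood at 36.3 and 29.7 CPM in sgArid1a and at 18.8 and 20.5 CPM in sgScr (log2 0.78 ± 0.17, edgeR adjusted p = 0.0153, 1.25% of all genes called higher), and the call was lost without sgScr replicate 1 (adjusted p = 0.0775). In the Gbp2 cluster Ifng had 33 and 39 UMIs in sgArid1a and 0 in both sgScr samples. Against the limit that a count of 0 allows over the sgScr group (3 UMIs, or 1.09 CPM), the 6.15 CPM of sgArid1a was at least 5.66-fold higher. No p is given, because the gene passed the filter on low counts through sgArid1a alone. In Gzma memory-like cells Ifng overlapped between the groups, at 48.8 and 46.1 CPM in sgArid1a and 49.9 and 42.8 CPM in sgScr (log2 0.07 ± 0.14, edgeR adjusted p = 0.862). Tnfsf14 was called in none of 8 states at the edgeR threshold and had a negative log2 fold change in 6 of them, down to -0.76 ± 0.34 in exhausted-like cells.

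**Figure D4:**
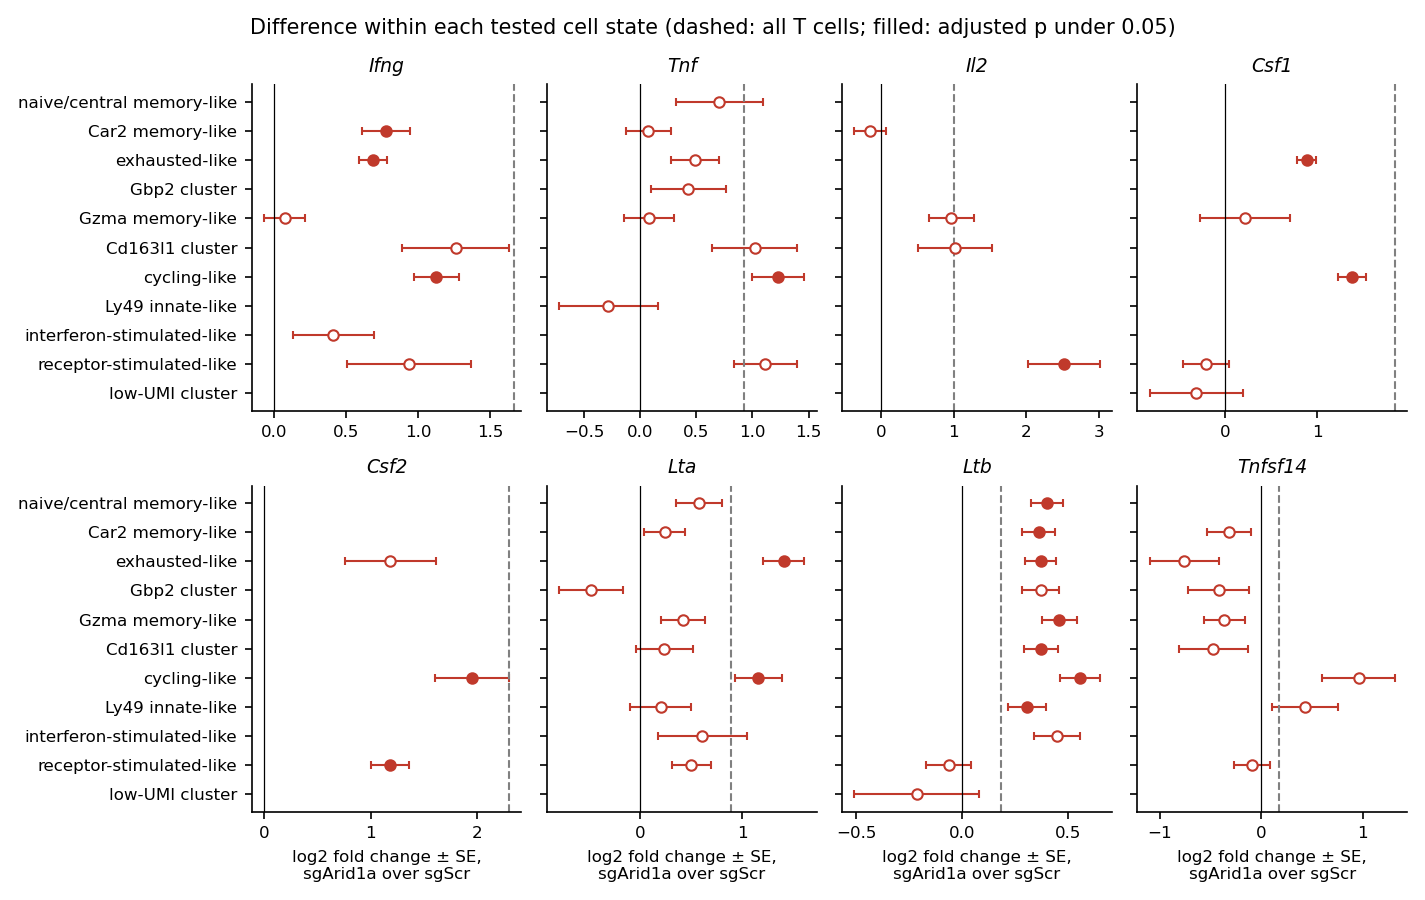
Log2 fold change of sgArid1a over sgScr with its SE (horizontal axis, scaled per panel) for each gene in each tested state; filled points passed an edgeR adjusted p of 0.05 and the dashed line is the value over all T cells. Ifng in the Gbp2 cluster, at 0 in sgScr, is not drawn. The filled Il2 point in receptor-stimulated-like cells is a description, since Il2 passed the filter on low counts there through sgArid1a. Most points for Ltb lie to the right of its dashed line and most for Ifng, Csf1 and Csf2 to the left of theirs.

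Whether the difference itself varied between states was tested between exhausted-like and naive/central memory-like cells, in 1 edgeR fit with the sample as a block. None of the 7 genes tested was called, where 7.5% of all genes were called. Naive/central memory-like cells held few UMIs of Ifng (4 and 10 in sgArid1a, 5 and 3 in sgScr) and Csf1 (1 and 3, 4 and 1). The same held for Csf2 (0 and 3 in sgArid1a, 2 and 0 in sgScr) and Tnfsf14 (3 and 6, 7 and 13). These genes were too low to be tested within that state, so for them the lack of a call does not show that the difference was alike. At an unadjusted p under 0.05 in edgeR's test over all genes there were 2. Lta had a difference of 0.82 ± 0.31 on the log2 scale (edgeR adjusted p = 0.0867), and Ifng had -1.38 ± 0.60 (edgeR adjusted p = 0.169). No other tool was run on it.

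When state profiles were weighted by the same mix of states in every sample, the differences shrank for 6 genes. The log2 ratio of the group means, with a pseudocount of 1 CPM, was 1.36 for Csf2 (1.99 over all T cells), 0.96 for Csf1 (1.71), 0.93 for Ifng (1.62), 0.69 for Il2 (0.78), 0.53 for Lta (0.80) and 0.51 for Tnf (0.80). It was larger for Ltb, at 0.30 against 0.15, and it changed sign for Tnfsf14, at -0.14 against 0.12. The Ifng value depended on the sgScr samples, at 1.38 without replicate 1 and 0.58 without replicate 2, and that of Il2 was 0.47 without sgArid1a replicate 1. At the common mix Ifng stood at 101 and 92.7 CPM in sgArid1a and at 64.4 and 36.6 CPM in sgScr. Both sgArid1a samples were above both sgScr samples for 7 of 8 genes, where 19.6% of all genes showed that order and the median log2 ratio was -0.07. States rest in part on genes that differ between the groups, so holding their mix equal can remove part of a difference.

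Shares of cells were compared after thinning each cell to 1500 UMIs, which left out 1767 and 331 cells in sgArid1a and 191 and 235 in sgScr. In sgArid1a replicate 1 this kept 1423 of 1999 naive/central memory-like and 1338 of 2012 Car2 memory-like cells. It kept 1394 of 1413 exhausted-like and 805 of 807 cycling-like cells there, so the shares of that sample lean towards the states with more UMIs per cell. Ifng was detected in 6.65 and 6.03% of cells in sgArid1a and in 2.42 and 2.11% in sgScr. Wilson 95% intervals, which cover counting error only, ran from 5.62 to 7.19% over the sgArid1a samples and from 1.80 to 2.79% over the sgScr samples. In naive/central memory-like cells, which are not known as producers, the share lay between 0.0703 and 0.178% in the 4 samples, where the cells counted had median depths before thinning of 1977 and 2889 UMIs in sgArid1a and 3434 and 3299 UMIs in sgScr. Without thinning the Ifng shares were 13.8 and 17.9% in sgArid1a and 6.40 and 6.16% in sgScr.

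Detection of Csf1 (2.55 and 2.23% of cells in sgArid1a, 0.470 and 0.578% in sgScr) and of Csf2 (0.627 and 0.579% in sgArid1a, 0.0806 and 0.188% in sgScr) had ratios of group means of 4.57 and 4.49. Lta was detected in 2.13 and 2.07% of cells in sgArid1a and in 1.21 and 1.08% in sgScr, Tnf in 1.46 and 1.59% in sgArid1a and in 1.05 and 0.968% in sgScr. Il2 was detected in 0.571 and 0.764% of cells in sgArid1a and in 0.497 and 0.376% in sgScr. Ltb was detected in most cells, 71.5 and 72.8% in sgArid1a and 66.2 and 66.3% in sgScr. Tnfsf14 overlapped, with 1.154 and 1.58% in sgArid1a and 1.05 and 1.21% in sgScr.

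For 7 of the 8 genes both sgArid1a shares were above both sgScr shares, an order found in 30.5% of all genes. Over 9 alternatives the count ranged from 5 without thinning to 8. With 2 samples a group the exact two-sided permutation test cannot go below p = 0.333, and all 7 had that p. In the thinned cells the number of UMIs per cell with the gene had ratios of sgArid1a over sgScr from 0.909 for Csf1 to 1.23 for Il2. Thinning leaves few UMIs per cell of a rarely detected gene. For such genes these ratios cannot show whether producing cells held more RNA. Without thinning, the 1% of cells with most UMIs of a gene held 46.6 and 45.6% of the Ifng UMIs in sgArid1a and 66.5 and 48.7% in sgScr. For Ltb that figure was 5.41 and 5.82% in sgArid1a and 5.78% in both sgScr samples.

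Cells with several effector cytokines were rare. Of Ifng, Tnf, Il2 and Csf2, at least 2 were detected at 1500 UMIs in 37 of 8928 cells (0.414%) and 54 of 12442 cells (0.434%) in sgArid1a, and in 10 of 7445 (0.134%) and 6 of 6922 (0.0867%) in sgScr. The Wilson 95% intervals ran from 0.301 to 0.571% over the sgArid1a samples and from 0.0397 to 0.247% over the sgScr samples. The means differed by 0.314 percentage points, a ratio of 3.84, with both sgArid1a samples above both sgScr samples (exact two-sided permutation test, p = 0.333, the smallest it can give). No cell held all 4, and 3 were found in 1 and 7 cells of sgArid1a and in 1 and 0 cells of sgScr. No naive/central memory-like cell held 2 in any sample, where a count of 0 allows up to between 0.0824 and 0.211%.

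Cells holding any of the 4 were also more frequent. At least 1 was detected in 8.88 and 8.47% of cells in sgArid1a and in 3.90 and 3.55% in sgScr. Among those cells, 4.67 and 5.12% held at least 2 in sgArid1a and 3.45 and 2.44% in sgScr. Higher shares of single genes also give more cells with 2. Set against the number expected if the genes were placed independently within a sample, Ifng with Tnf had ratios of 1.16 and 2.18 in sgArid1a and 3.18 and 2.12 in sgScr. Ifng with Csf2 had 5.64 and 3.92 in sgArid1a and 0 and 7.29 in sgScr. The groups overlapped for both pairs, so the higher share does not show more joint detection than the single shares give. In receptor-stimulated-like cells 2 or more were found in 9 of 276 (3.26%) and 19 of 426 (4.46%) cells of sgArid1a, the highest share of the 12 states in both samples, and in 1 of 125 (0.8%) and 1 of 103 (0.971%) of sgScr, and the intervals of single samples overlapped between the groups. In sgScr other states had higher shares on few cells, such as 2 of 32 (6.25%) in the low-UMI cluster of replicate 1. Cycling-like cells with 2 or more were 11 of 805 and 9 of 1015 in sgArid1a and 0 of 177 and 0 of 169 in sgScr, where a count of 0 allows up to 1.69 and 1.78%. Gzma memory-like cells did not show that order, with 2 of 668 and 2 of 1083 cells in sgArid1a and 5 of 706 and 1 of 656 in sgScr.

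Pairs of genes were set against the number of cells expected if each gene were placed independently within a sample. Ifng and Csf2 were found together in 40 cells where 8.49 were expected, a ratio of 4.71, and the ratio was 2.04 when the expectation was made within each state. Ifng and Csf1 were found together in 104 cells, 3.09 times the number expected, and within states in 1.08 times the number expected. Ifng with Il2 kept its ratio in the sum of the 4 samples, at 2.18 in the sample and 2.30 within states (23 cells). These cells were 5 and 14 in sgArid1a and 4 and 0 in sgScr. Ifng with Tnf had 45 cells and ratios of 1.88 and 1.39. The samples differed, with 10 and 26 of these cells in sgArid1a and 6 and 3 in sgScr. Their ratios within states were 0.929 and 1.74 in sgArid1a and 1.52 and 1.11 in sgScr.

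Tnfsf14 was found with Il2 in 15 cells (ratio 5.37, within states 2.99) and with Tnf in 24 cells (ratio 3.83, within states 2.18), but with Csf1 in 2 cells where 7.88 were expected. Il2 and Csf1 were found together in 0 cells where 3.75 were expected from the samples and 1.08 within states. Il2 and Csf2 were also found together in 0 cells, where 0.948 were expected, so a difference was not detectable at this depth. Pairs with Ltb had ratios between 0.733 (with Csf2) and 1.146 (with Lta). Cells share libraries and depth, and doublets were not removed by a caller, so these ratios are a description. Cells with 2 or more Trbv segments made up 6.73 and 13.2% of T cells in sgArid1a and 11.1 and 10.6% in sgScr.

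**Figure D5:**
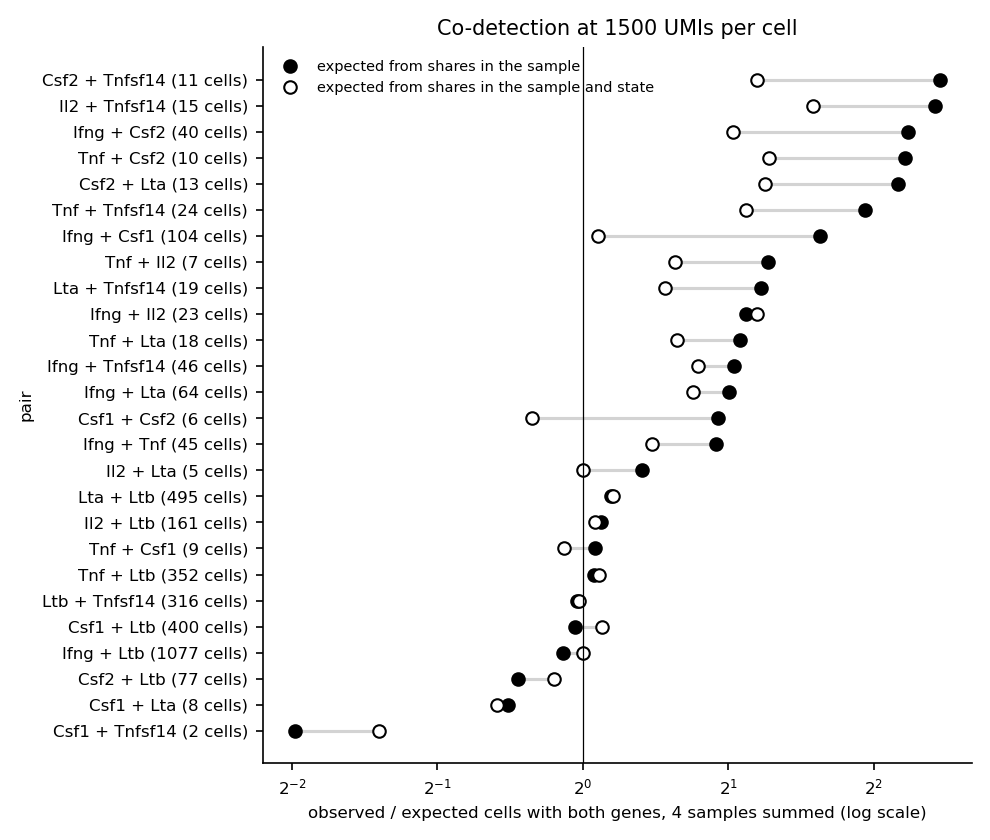
Observed over expected number of cells with both genes of a pair (horizontal axis, log scale) at 1500 UMIs per cell, summed over the 4 samples; filled points use shares in the sample, open points shares in the sample and state, and cell counts stand beside the names. Ifng with Csf1 moves close to 1 within states, Ifng with Il2 does not, and the pairs of Il2 with Csf1 and Csf2, seen in 0 cells, are not drawn.

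Genes most like each of the 8 were taken over 44 profiles (11 states in 4 samples) among 5485 genes averaging 20 CPM or more, by Pearson r of log2(CPM + 1). The profiles share libraries and cell states, so the values are a description. Csf1 was most like Tox, a transcription factor of exhausted T cells (r = 0.95), Ciapin1 (0.95) and Samsn1 (0.94). Csf2 was most like the chemokine gene Ccl1 (0.93), the tetraspanin gene Cd81 (0.91) and Lad1 (0.91). Ifng was most like Ptms (0.92), Capg, an actin-capping protein gene (0.92), and Bcl2a1d, a survival gene (0.91). Tnf was most like Cd82 (0.86), Traf1, a TNF receptor adaptor gene (0.86), and Il18r1 (0.85).

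Lta and Tnfsf14 had Crtam, an activation-induced adhesion molecule gene, as the gene most like them (0.79 and 0.84), with Traf1 in both lists (0.78 and 0.77), beside Xcl1 for Lta (0.79) and Dusp2 for Tnfsf14 (0.76). Ltb was most like Rabac1 (0.83), Socs1, a cytokine feedback inhibitor gene (0.82), and Ptpn18 (0.80). Il2 was under the minimum of 10 CPM and was not matched. Among the 8 themselves the highest r were 0.82 for Csf1 with Csf2 and 0.81 for Lta with Tnfsf14, and the lowest was -0.69 for Csf1 with Ltb.

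Other genes of these pathways are given as counts over all T cells, with the 28% called higher and 26.4% called lower as background. Of 10 other TNF family ligands tested, 9 were higher and 1 lower in sgArid1a. Cd70, a ligand of CD27, stood at 18.05 and 17.8 CPM in sgArid1a and at 6.99 and 8.85 CPM in sgScr (log2 1.21 ± 0.10, edgeR adjusted p = 4.92e-07), and Tnfsf9, the 4-1BB ligand gene, had 0.84 ± 0.11. The 1 that fell was Tnfsf8, the CD30 ligand gene, at 31.5 and 30.1 CPM in sgArid1a and 52.7 and 53.4 CPM in sgScr (log2 -0.76 ± 0.07, edgeR adjusted p = 8.18e-07). Of 8 other cytokines tested, 3 were higher, namely Spp1 (osteopontin, log2 1.23 ± 0.11), Areg (amphiregulin, 1.69 ± 0.30) and Tgfb1 (0.22 ± 0.08), and 2 were lower, namely Il16 (-0.53 ± 0.06) and the anti-inflammatory Il10 (-1.44 ± 0.46). The Il10 groups overlapped, at 0.484 and 0.295 CPM in sgArid1a and 1.49 and 0.466 CPM in sgScr, and sgScr replicate 1 stood apart.

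Receptors of the 8 products moved in both directions, 6 higher and 4 lower of 12 tested. Il2ra, the inducible chain of the IL-2 receptor, stood at 18.7 and 17.2 CPM in sgArid1a and at 6.76 and 8.04 CPM in sgScr (log2 1.30 ± 0.10), and Il2rb, the signalling chain, had 0.63 ± 0.06. Ifngr2, which encodes the second chain of the receptor for interferon-gamma, stood at 4.68 and 5.45 CPM in sgArid1a and at 14.3 and 14.2 CPM in sgScr (log2 -1.45 ± 0.09). The edgeR adjusted p of the 3 ranged from 6.68e-08 to 2.54e-06. The other receptor genes that fell were Ifngr1 (-0.21 ± 0.06), and Btla (-0.44 ± 0.09) and Tnfrsf14 (-0.51 ± 0.12), an inhibitory receptor and its ligand HVEM, which also binds LIGHT. The others that rose were Cd160 (0.59 ± 0.06), Tnfrsf1b (0.25 ± 0.07), Csf2ra (0.59 ± 0.18) and Il2rg (0.16 ± 0.06).

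Genes that act on cytokine transcription and message stability changed in both directions. Of 24 transcription factor genes, 9 were higher, such as Bhlhe40, a factor of activated cells (log2 0.93 ± 0.06), and 5 lower, such as Nfatc3 (-0.58 ± 0.06) and Stat5b (-0.56 ± 0.06). Of 12 genes of cytokine mRNA decay and stability, 10 were lower and 1 higher. Zfp36l2, which binds AU-rich elements, stood at 113 and 116 CPM in sgArid1a and at 180.2 and 195 CPM in sgScr (log2 -0.68 ± 0.06, edgeR adjusted p = 9.20e-07). Rc3h1, which encodes roquin, had -0.57 ± 0.07, and Arid5a, an RNA-binding protein known to stabilise messages, had -0.46 ± 0.06. The 1 that rose was Elavl1, which encodes the stabilising protein HuR (0.19 ± 0.07). The members of this list thus do not all act in decay.

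Genes known to respond to the products are given by list. Of 24 interferon-gamma response genes tested, 16 were higher and 1 lower, led by Irf8 (log2 1.39 ± 0.07), Gbp6 (0.72 ± 0.07) and Psmb9 (0.57 ± 0.06), and the 1 that fell was Gbp9 (-0.16 ± 0.06). Of 14 TNF and NF-kB response genes, 7 were higher and 3 lower, led by the survival gene Bcl2a1b (0.83 ± 0.06), Tnfaip8 (0.52 ± 0.07) and Nfkb2 (0.46 ± 0.06). The 3 that fell were Cflar (-0.25 ± 0.06), Bcl3 (-0.23 ± 0.07) and Nfkbiz (-0.21 ± 0.07). Of 14 IL-2 response genes, 7 were higher and 5 lower, led by Gzmb (1.56 ± 0.07) and Tfrc (1.13 ± 0.08) among those that rose and by Pim2 (-0.76 ± 0.06) among those that fell. The others that fell were Socs3 (-0.76 ± 0.09), Bcl2 (-0.50 ± 0.06), Ccnd3 (-0.26 ± 0.06) and Pim1 (-0.27 ± 0.07). Of 19 receptor-induced early genes, 16 were higher and 1 lower, led by Xcl1 (1.96 ± 0.08), Tnfrsf9 (1.38 ± 0.07) and Irf8, and the 1 that fell was Cd69 (-0.31 ± 0.09). Gbp and Bcl2a1 genes have close copies, and reads of the copies may have been exchanged, which makes each single level uncertain.

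Signals of handling and of other cells moved with the groups. The heat shock and dissociation list, whose genes respond to enzymatic digestion of tissue, had 18 of 22 genes higher and 1 lower and summed to 8295 and 8755 CPM in sgArid1a and to 6470 and 6573 CPM in sgScr. Its genes led with Dusp1 (log2 1.21 ± 0.08), Fos (0.86 ± 0.06) and Hspd1 (0.74 ± 0.06), and the 1 that fell was Zfp36 (-0.22 ± 0.06). Some of these genes are also induced by the T cell receptor, and their part in the cytokine values was not tested. Macrophage and monocyte markers, 5 of 8 tested higher, summed to 168 and 174 CPM in sgArid1a and to 124 CPM in both sgScr samples, most of it from Cst3 (157 and 159 CPM in sgArid1a, 114 and 112 CPM in sgScr), while Csf1r and Adgre1 were at most 0.221 CPM in every sample. Dendritic cell markers, 4 of 6 tested higher and 1 lower, summed to 111 and 112 CPM in sgArid1a and to 46.1 and 59.3 CPM in sgScr, and Siglech was at 0 in all 4. The CD4 T cell list, 4 of 6 higher, summed to 173 and 187 CPM in sgArid1a and to 92.3 and 103 CPM in sgScr, most of it from Tnfrsf4, with Cd4 at most 0.838 CPM. Of 9 granulocyte markers 6 were at 0 in all 4 samples, and the melanoma list summed to between 2.09 and 2.91 CPM. Natural killer cell markers summed to 87.9 and 82.1 CPM in sgArid1a and 69.2 and 70.9 CPM in sgScr, and gamma-delta T cell markers to 20.4 and 20.1 CPM in sgArid1a and 8.25 and 8.54 CPM in sgScr. B cell markers summed to 138 and 149 CPM in sgArid1a and 181 and 180.1 CPM in sgScr, and stroma and endothelium markers to 17.997 and 17.6 CPM in sgArid1a and 34.8 and 36.8 CPM in sgScr, nearly all from Pecam1, with the other 7 at most at 0.184 CPM. The part of these markers in the cytokine values was not tested.

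Cells grouped by their T cell receptor beta variable segment differed in Ifng and Csf1. In Trbv20 cells (609 and 791 in sgArid1a, 160 and 138 in sgScr) Ifng stood at 231 and 235 CPM in sgArid1a and at 4.29 and 6.46 CPM in sgScr, and Csf1 at 65.7 and 64.1 CPM in sgArid1a and at 0 and 1.61 CPM in sgScr. In Trbv13-1 cells Ifng stood at 168 and 133 CPM in sgArid1a and at 35.7 and 56.5 CPM in sgScr. Without the cells of both segments (an alternative added after seeing the data) all 8 genes were called higher, and Tnfsf14 had a log2 fold change of 0.43 (edgeR adjusted p = 0.00278). Without receptor-stimulated-like, exhausted-like and cycling-like cells, which hold most Csf1 and Csf2 UMIs in each sample, few UMIs were left, and neither Csf1 (log2 0.10) nor Csf2 (0.81) passed. Without receptor-stimulated-like cells alone Il2 had 0.38 (edgeR adjusted p = 0.0513). These subsets were also chosen after seeing the data.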

How the data were processed

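Single-cell RNA libraries (10x 5′ kit) of sorted CD8 T cells were deposited as 1 matrix of raw UMI counts per gene and cell for each of 4 samples. The matrices were written by Cell Ranger 6.0.1 per the file headers, while the submitters' processing notes name Cell Ranger 3.0.2, Seurat and mm10; the deposited counts are not normalized. Of 39473 barcodes, 38316 passed minima of 500 genes and a maximum of 10% mitochondrial UMIs, and 55 cells of other types were removed. Clustering used scanpy 1.11.5 and leidenalg 0.10.2 (2000 variable genes without the 8 genes described, 30 components, 15 neighbours, resolution 0.8). Clusters were named from marker lists. Doublets were not removed by a caller, and cells with 2 or more Trbv segments were left out as an alternative.

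Counts were summed per sample and per sample and state (states of 50 or more cells in each sample). The sums were tested with edgeR 4.0.16 (TMM, quasi-likelihood test) in R 4.3.3, adjusted by Benjamini-Hochberg over all genes of a fit. The SE beside each log2 fold change was worked back from the statistic of that test. It is not the spread of the 2 samples of a group. For shares, each cell was thinned to 1500 UMIs, and Wilson 95% intervals were computed, which cover counting error only. Single values were tested with scipy 1.17.1 (exact permutation, two-sided). The procedures were tested on simulated data. Alternatives were DESeq2 1.42.0, relative log expression size factors, no filter on low counts, a replicate block, other cell sets, depths and resolutions, and leaving out each sample. The genes and lists were chosen with earlier results of these data known. The text names the 8 genes, Arid1a, the 3 genes of smallest p in each pathway list, all called genes of a direction with 5 or fewer, and the 3 genes most like each of the 8; some further genes were named after their values were seen.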

Additional observations from a re-analysis of the deposited data

How the results depend on the processing

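The count of the 8 genes called over all T cells stayed between 6 and 8 over 17 alternatives, with 7 in DESeq2, and no result reversed. Genes called overall numbered 6964, against 4038 with cells thinned to 1500 UMIs and 3341 without receptor-stimulated-like, exhausted-like and cycling-like cells (the last set chosen after seeing the data). The difference in cells with at least 2 effector cytokines was 0.314 points, against 0.223 at 1000 UMIs, 0.880 at 2500 UMIs, 2.16 unthinned, 0.244 without cycling-like cells, and, in sets chosen after seeing the data, 0.280 without cells of Trbv13-1 or Trbv20 and 0.209 without receptor-stimulated-like cells; the cause was not tested. Leaving out 1 sample gave 6 to 7 of the 8 genes, 5171 to 7476 genes, 15 to 22 calls within states, and 0.290 to 0.338 points. Replicate numbers are shared between groups, and the labels do not say whether they pair the samples. The difference of replicate 1 from replicate 2 had a correlation of -0.042 between the groups over 12793 genes. With a single such difference in each group, this does not settle the pairing. With the replicate block 7 of the 8 genes and 7052 genes were called, and 26 calls were made within states, against 19. Without a filter on low counts the calls within states were 27. Tnfsf14 passed without cycling-like cells (log2 0.25, edgeR adjusted p = 0.0490). The low counts of Il2 and Csf2, and 2 samples a group, limit the precision.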
